A study of Solanum lycopersicum with 12 samples.

Results

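The tonoplast intrinsic proteins (TIPs) of tomato (Solanum lycopersicum) were followed through leaf and root of salt-irrigated plants. The members were the 9 loci, of 35976 in the expression table, whose identifiers are listed as aquaporins of the TIP1, TIP2 and TIP3 classes. The list does not say which locus belongs to which class, and a search of RefSeq's gene table (assembly SLM_r2.1) matched 0 of the 9. Each locus is therefore called by its identifier and given no role of its own.

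Aquaporins are channel proteins that let water, and in some cases small neutral solutes, pass through membranes. TIPs sit in the tonoplast, the membrane around the vacuole, and set how fast water moves between the vacuole and the cytoplasm, which matters for turgor and for cell expansion. In Arabidopsis, TIP1 and TIP2 proteins are found in vegetative tissue, TIP2 proteins also carry ammonia, and TIP3 proteins mark the vacuoles of seeds. Salinity lowers the water potential outside the root, and plants under salinity store sodium and other solutes in the vacuole.

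All plants were wild type (WT) and received 50 mM NaCl in the irrigation water (5.8 dS per m), the controls included, so no group without salt enters these results. The treated groups had been sprayed on the leaves with PSI-475, a biostimulant, at 2.5 mL per L, and the untreated groups with water. Plants aged 65 days received the first spray, and salt followed 1 day later. The second spray came after 27 days of saline irrigation. Young leaf and root were taken at an age of 127 days, 2 h into the dark period. Each tissue gave 3 libraries of treated and 3 of untreated plants, so that there were 4 groups. The labels do not name a cultivar or say whether replicates were separate plants, so the spread behind each p-value is that between libraries and could be technical.

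Values are FPKM, fragments scaled to the length of the locus and to the fragments of the library, which allows levels to be compared between loci. Comparisons between libraries also depend on how these are scaled, and other scalings are given where they change a result. Whole fragments could be recovered from the FPKM digits, and libraries held 18190465 to 22993130 fragments in leaf and 17108347 to 20595008 in root. Of the 9 loci, 8 had fragments in at least 1 library. The exception, Solyc03g019820.3, had 0 fragments in all 12 libraries, which allows up to 3 fragments in each. Counting limits of this kind cover counting error only. For the others, recovered lengths ran from 978 to 1771 bases, apart from 3269 bases for Solyc03g120470.3. By their identifiers, 5 of the 9 loci lie on chromosome 6, which holds 8.34% of the tomato loci in the table, and the others on chromosomes 3, 10 and 12.

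The members were expressed at very different levels, and the order of the levels was not the same in leaf and root. In untreated leaf, Solyc06g074820.3 stood far above the rest, at 111, 117 and 137 FPKM. Solyc06g060760.3 was next at 12.6, 11.5 and 11.3 FPKM, followed by Solyc06g072130.3 at 11.0, 8.39 and 7.92 FPKM. All other members were below 8 FPKM in every untreated leaf library. Only 3.88% of the loci detected in untreated leaf had a mean above that of Solyc06g074820.3, whereas 35.9% exceeded Solyc06g060760.3.

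The lower part of the order in untreated leaf ran from Solyc03g120470.3 through Solyc06g075650.3 and Solyc12g044330.2 to Solyc10g083880.2. Their means were 7.04 ± 0.755, 4.01 ± 0.304, 2.82 ± 0.0388 and 1.83 ± 0.670 FPKM (SD, n = 3). Solyc06g066560.2 had 0, 1 and 1 fragments in the 3 libraries. Among the members with a mean above 1 FPKM in untreated leaf, no neighbours in the order overlapped between libraries.

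In untreated root the highest member was Solyc06g060760.3, at 80.6, 77.9 and 75.4 FPKM. Solyc10g083880.2 followed at 44.0, 39.5 and 39.2 FPKM, a locus that was near the bottom of the order in leaf. Solyc06g074820.3 came next at 37.3, 35.6 and 31.2 FPKM, and Solyc12g044330.2 after it at 17.9, 24.3 and 18.5 FPKM. These 4 loci did not overlap with each other.

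The remaining members were low in untreated root. Solyc03g120470.3 and Solyc06g075650.3 overlapped, with means of 5.31 ± 0.325 and 5.17 ± 0.539 FPKM (SD, n = 3). Solyc06g066560.2 was at 3.69 ± 0.244 FPKM (SD, n = 3). Solyc06g072130.3, the third member in leaf, was at 0.572 ± 0.0767 FPKM (SD, n = 3), from 10 to 14 fragments per library.

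**Figure D1:**
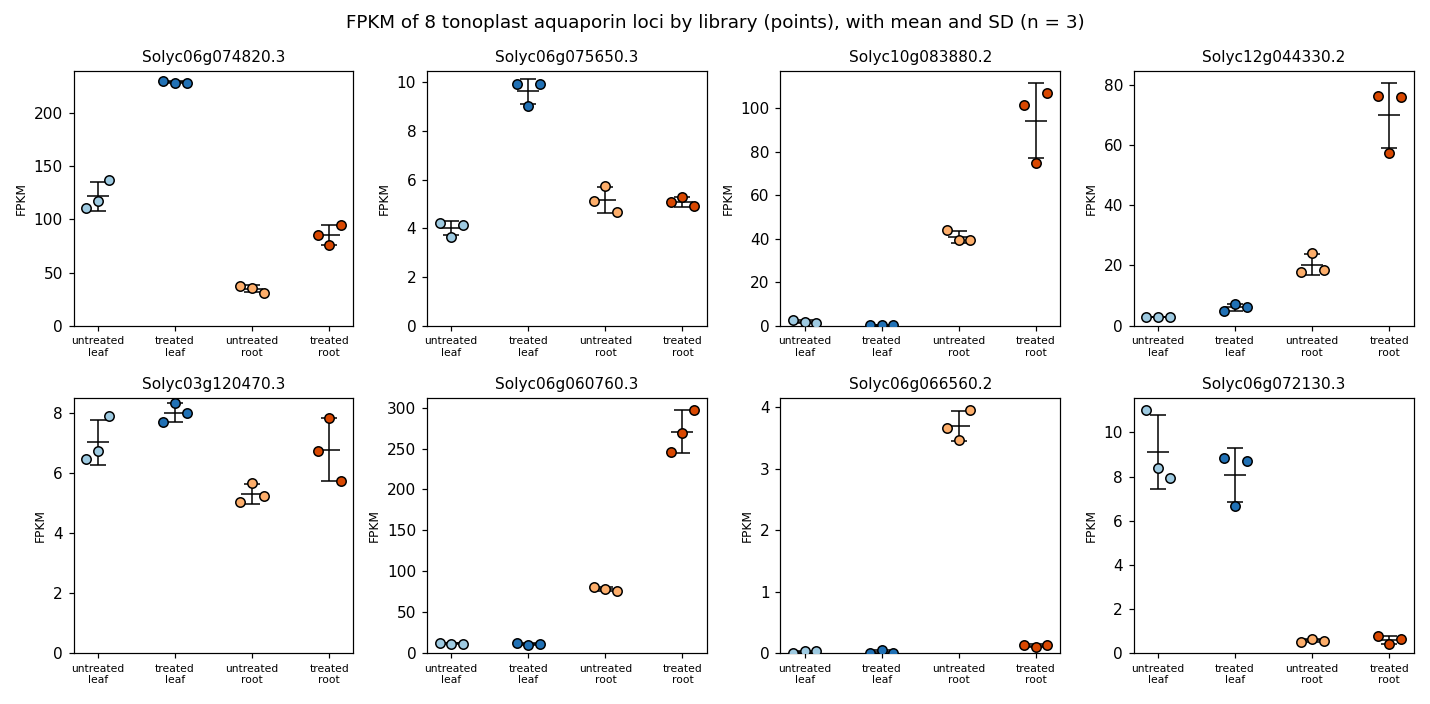
FPKM (vertical axes, each from 0 and with its own scale) of the 8 loci with fragments, by group (horizontal axes). Points are single libraries and bars the mean and SD (n = 3). Solyc06g074820.3 is highest in treated leaf, at 228 to 229 FPKM, Solyc06g060760.3 in treated root, at 245 to 297 FPKM, and Solyc06g066560.2 is at or below 0.137 FPKM outside untreated root.

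The leaf comparison asked how TIP expression in salt-irrigated young leaves differed after the spray. Solyc06g074820.3, Solyc06g075650.3 and Solyc12g044330.2 rose, to 1.88, 2.40 and 2.16 times their untreated mean FPKM, and Solyc10g083880.2 fell to 0.171 times. Solyc03g120470.3, Solyc06g060760.3 and Solyc06g072130.3 did not pass the test, and 2 loci were too low to be tested. Tests were made with limma on log2(FPKM + 1) over all loci that averaged 1 FPKM or more, and a locus was called at a Benjamini-Hochberg adjusted p under 0.05. In leaf bulk tissue, as in root, more RNA per cell and more cells of an expressing type cannot be told apart.

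Of the 7 members tested in leaf, 3 were called higher and 1 lower, against 13.5% and 18.8% of the 18405 loci tested. By at least 2-fold on the log2 scale, 1 member was called higher and 1 lower, against 2.6% and 1.15% of loci. The treated and untreated libraries of 4 members did not overlap, against 47.9% of the loci tested. The median log2 change was 0.17 over the 7 members and -0.09 over all loci, and the median absolute change was 0.88 and 0.24. Of the 7, Solyc10g083880.2 passed the filter only through its untreated libraries, so that its place in these counts and medians is no support for them.

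The most abundant leaf member, Solyc06g074820.3, went from 111, 117 and 137 FPKM to 229, 228 and 228 FPKM. The treated libraries lay close together and above every untreated one. The log2 change was 0.91 (SE 0.084, limma adjusted p = 0.000181).

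Solyc06g075650.3 went from 4.22, 3.66 and 4.15 FPKM to 9.94, 9.03 and 9.93 FPKM. The groups did not overlap, and each treated library rested on 218 to 231 fragments against 70 to 87 in the untreated ones. In limma, the change on the log2 scale was 1.08 (SE 0.0996, limma adjusted p = 0.000171).

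Solyc12g044330.2 went from 2.87, 2.80 and 2.80 FPKM to 4.96, 7.07 and 6.23 FPKM. The untreated libraries were nearly equal, and the treated ones were spread over a wider range above them. The log2 change was 0.88 (SE 0.13, limma adjusted p = 0.00196).

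Solyc10g083880.2 moved the other way, from 2.56, 1.69 and 1.24 FPKM to 0.168, 0.283 and 0.487 FPKM. The groups did not overlap, although the untreated libraries differed from each other by over 1 FPKM. In limma, the change on the log2 scale was -1.09 (SE 0.20, limma adjusted p = 0.00541). On this scale the change of a low locus is understated, and with a pseudocount of 0.1 FPKM it was -2.24 (limma adjusted p = 0.00600). Pooled over libraries, 113 fragments in untreated leaf stood against 22 in treated leaf, a 5.93-fold difference per fragment sequenced (exact 95% interval 3.73 to 9.84, counting error only). Its mean over the 6 leaf libraries was 1.07 FPKM, just above the filter. Without untreated leaf replicate 1 or replicate 2 it fell below the filter and was not tested, and 3 members were called.

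The other 3 members tested in leaf missed the threshold. Solyc06g060760.3 had values of 12.6, 11.5 and 11.3 FPKM untreated and 12.3, 9.69 and 11.0 FPKM treated, with a log2 change of -0.10 (95% interval -0.34 to 0.15, limma adjusted p = 0.524). The interval for Solyc03g120470.3 ran from -0.07 to 0.41 (limma adjusted p = 0.237). That for Solyc06g072130.3 ran from -0.50 to 0.19 (limma adjusted p = 0.466). In each of the 3 loci the treated and untreated libraries overlapped.

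For root, the comparison asked whether TIP expression below ground differed after the foliar spray. The 4 members highest in untreated root all rose: Solyc06g060760.3 to 3.47, Solyc12g044330.2 to 3.45, Solyc06g074820.3 to 2.46 and Solyc10g083880.2 to 2.31 times their untreated mean FPKM. Solyc06g066560.2 fell to 0.0327 times its untreated mean. Solyc03g120470.3 was called higher by a small amount, and Solyc06g075650.3 did not pass the test.

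Of the 7 members tested in root, 5 were called higher and 1 lower, against 52% and 24.5% of the 18277 loci tested, so a call alone says little here. The treated and untreated libraries of 6 members did not overlap, against 79.2% of the loci tested. By at least 2-fold on the log2 scale, 4 members were called higher and 1 lower, against 12.3% and 10.2% of loci. When libraries were scaled by median of ratios, Solyc06g074820.3 (0.99) and Solyc10g083880.2 (0.89) stayed called but fell below 2-fold. After quantile normalization both remained above it, at 1.22 and 1.14. The shares of loci are given for the deposited values only. The median log2 change was 1.17 over the 7 members and 0.28 over all loci. Of the 7, Solyc06g066560.2 passed the filter only through its untreated libraries, so that its place in these counts and medians is no support for them.

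Solyc06g060760.3 went from 80.6, 77.9 and 75.4 FPKM to 245, 269 and 297 FPKM. Every treated library was over 3 times any untreated one, and only 1.47% of the loci detected in treated root had a higher mean. The log2 change was 1.78 (SE 0.068, limma adjusted p = 1.21e-07).

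Solyc12g044330.2 went from 17.9, 24.3 and 18.5 FPKM to 76.3, 57.4 and 75.9 FPKM. The groups did not overlap, and treated root replicate 2 was the lowest of the treated libraries. In limma, the change on the log2 scale was 1.74 (SE 0.14, limma adjusted p = 8.11e-06).

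Solyc10g083880.2 went from 44.0, 39.5 and 39.2 FPKM to 102, 74.6 and 107 FPKM, again with replicate 2 the lowest treated library. The log2 change was 1.17 (SE 0.12, limma adjusted p = 4.54e-05). Without treated root replicate 2 it was 1.33.

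Solyc06g074820.3 went from 37.3, 35.6 and 31.2 FPKM to 85.2, 76.2 and 94.6 FPKM. Replicate 2 was once more the lowest treated library, and the groups did not overlap. In limma, the change on the log2 scale was 1.27 (SE 0.090, limma adjusted p = 3.92e-06).

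Solyc06g066560.2 was the member with the largest change on the log2 scale in root, from 3.66, 3.46 and 3.95 FPKM to 0.127, 0.0988 and 0.137 FPKM. The untreated libraries held 111 to 130 fragments each and the treated ones 3 to 5. The log2 change was -2.06 (SE 0.11, limma adjusted p = 7.17e-07). This scale understates it, and with a pseudocount of 0.1 FPKM the change was -4.10 (limma adjusted p = 2.05e-06). Pooled over libraries, 354 fragments stood against 12, a 30.3-fold difference per fragment sequenced (exact 95% interval 17.1 to 59.2, counting error only).

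Solyc03g120470.3 had 5.02, 5.66 and 5.23 FPKM untreated and 6.75, 7.85 and 5.75 FPKM treated. The groups lay side by side without overlap, and treated root replicate 2 was here the highest library. The log2 change of 0.30 (SE 0.11, limma adjusted p = 0.0376) was close to the median of all root loci. The call was lost with median-of-ratios scaling, where the change was 0.05 (limma adjusted p = 0.703), and with quantile normalization, where it was 0.07 (limma adjusted p = 0.584). It was lost without the filter on low values (limma adjusted p = 0.0621). It was also lost without untreated root replicate 1 or 3 or treated root replicate 1 or 2, with limma adjusted p = 0.106, 0.0850, 0.0784 and 0.124.

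Solyc06g075650.3, which rose in leaf, had 5.12, 5.74 and 4.66 FPKM in untreated root and 5.07, 5.28 and 4.90 FPKM in treated root. The treated libraries fell within the untreated range. In limma, the change on the log2 scale was -0.02 (95% interval -0.23 to 0.19, limma adjusted p = 0.862). With median-of-ratios scaling it was -0.26 (limma adjusted p = 0.0332) and with quantile normalization -0.25 (limma adjusted p = 0.0367), so that whether this locus was called depended on scaling. Solyc06g072130.3 was below the filter in root, at 0.504 to 0.655 FPKM untreated and 0.402 to 0.773 FPKM treated.

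Median-of-ratios scaling moved the median log2 change of all root loci from 0.28 to 0.02. It divides each library by its median ratio over loci, so here and below a median near 0 follows from the scaling and is no result. Relative to the median as deposited, the root changes were 1.503 for Solyc06g060760.3, 1.46 for Solyc12g044330.2, 1.00 for Solyc06g074820.3 and 0.89 for Solyc10g083880.2. They were -2.34 for Solyc06g066560.2, 0.02 for Solyc03g120470.3 and -0.29 for Solyc06g075650.3. In leaf, the median moved from -0.09 to -0.01.

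**Figure D2:**
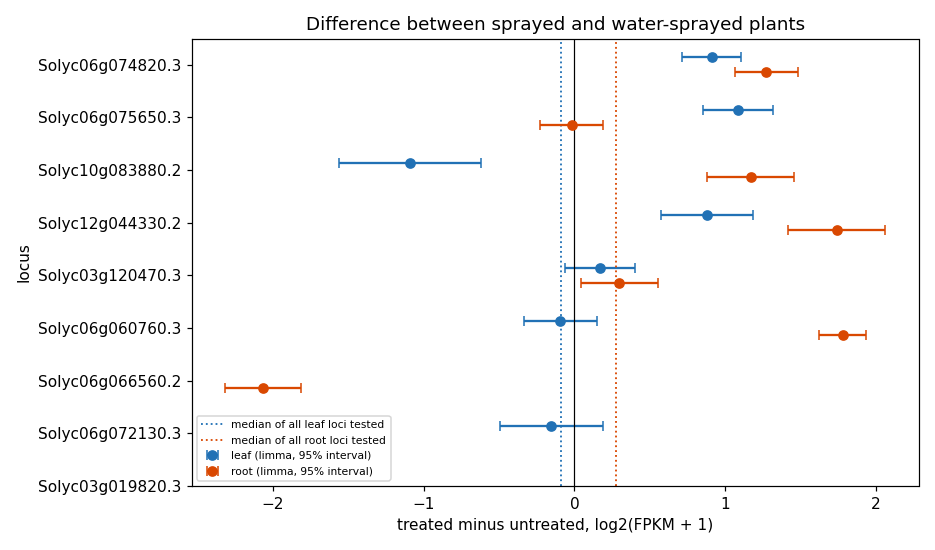
Treated minus untreated difference in log2(FPKM + 1) (horizontal axis) for each locus (vertical axis), in leaf (blue) and root (orange). Points are limma estimates with 95% intervals, dotted lines the medians of all loci tested, and loci without a point were below the filter. Solyc10g083880.2 lies at -1.09 in leaf and 1.17 in root, and Solyc06g060760.3 at -0.10 in leaf and 1.78 in root.

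Whether the spray effect differed between root and leaf was tested as an interaction over all 12 libraries. Of the 7 members tested, 4 were called with a higher effect in root and 1 with a lower one, against 46.6% and 20.8% of the 19324 loci tested. Solyc06g072130.3 passed the filter only through its leaf libraries, and Solyc10g083880.2 was below 1 FPKM in treated leaf. The place of either in this count is no support for it. Among the members tested, Solyc10g083880.2 had the largest difference, 2.26 on the log2 scale (SE 0.24, limma adjusted p = 4.35e-06). It fell in leaf and rose in root, and the difference ran from 1.94 to 3.73 over the alternatives. Solyc06g060760.3 followed with 1.87 (SE 0.12, limma adjusted p = 7.60e-08), from a rise in root beside a leaf change within -0.34 to 0.15.

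Solyc06g075650.3 had the opposite contrast, with an effect in root lower by -1.10 (SE 0.12, limma adjusted p = 7.34e-06). Solyc12g044330.2 rose in both tissues and by 0.86 more in root (SE 0.20, limma adjusted p = 0.00230). That difference was 0.72 with a pseudocount of 0.1 FPKM (limma adjusted p = 0.0129) and 0.50 with median-of-ratios scaling (limma adjusted p = 0.0429). In limma-voom on the recovered fragments it was 0.70 (limma adjusted p = 0.0582), which ended the call.

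Solyc06g074820.3 also rose in both tissues, and its difference of 0.36 (SE 0.13, limma adjusted p = 0.0292) depended on scaling. It was -0.02 with median-of-ratios scaling (limma adjusted p = 0.892), and the call was also lost with quantile normalization and when any of 5 libraries was left out. These libraries were untreated leaf replicate 3, treated leaf replicate 3, untreated root replicate 3 and treated root replicates 1 and 3, with limma adjusted p = 0.0593, 0.0512, 0.0766, 0.0511 and 0.0738. The median interaction over all loci was 0.32 as deposited and 0.004 with median-of-ratios scaling. Relative to the former, the values were 1.93 for Solyc10g083880.2, 1.55 for Solyc06g060760.3, 0.54 for Solyc12g044330.2, 0.04 for Solyc06g074820.3 and -1.43 for Solyc06g075650.3.

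Solyc03g120470.3 and Solyc06g072130.3 missed the threshold, with intervals for the difference of -0.20 to 0.45 and -0.26 to 0.61. Solyc06g072130.3 was below 1 FPKM in every root library, where log2(FPKM + 1) understates any change, so its interval limits the difference little. Solyc06g066560.2 averaged 0.962 FPKM over the 12 libraries, just under the filter. Tested without the filter, its effect was lower in root than in leaf by -2.06 in log2 units (limma adjusted p = 7.74e-09). That comparison has little to measure in leaf, where the locus had 2 fragments in all over the untreated and 2 over the treated libraries.

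Root and leaf were also compared directly, in untreated and in treated plants, to place each member by tissue. Solyc06g072130.3 passed the filter only through its leaf libraries, so that its place in the counts of both tissue comparisons is no support for them. In untreated plants 4 of the 7 members tested were called higher in root and 3 lower, against 33.1% and 48.1% of the 19324 loci tested. Solyc10g083880.2, Solyc06g060760.3 and Solyc12g044330.2 were the root members, with log2 differences of 3.91 (SE 0.17), 2.63 (SE 0.088) and 2.46 (SE 0.14), all with a limma adjusted p of at most 3.77e-09. Solyc06g072130.3 and Solyc06g074820.3 were the leaf members, with differences of -2.67 (SE 0.14) and -1.78 (SE 0.094), and a limma adjusted p of at most 1.47e-09. In mean FPKM they were 15.9 and 3.50 times as high in leaf as in root. Because Solyc06g072130.3 entered the test through its leaf values, its p is no support for naming it a leaf member.

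The other pair differed less between tissues in untreated plants. Solyc06g075650.3 was higher in root by 0.30 (SE 0.088, limma adjusted p = 0.00747). That difference was 0.48 with median-of-ratios scaling (limma adjusted p = 0.000306) and 0.61 with quantile normalization (limma adjusted p = 4.82e-05). Solyc03g120470.3 was lower by -0.35 (SE 0.11, limma adjusted p = 0.00889), a call lost with median-of-ratios scaling (-0.16, limma adjusted p = 0.181) and with quantile normalization (-0.02, limma adjusted p = 0.871). Solyc06g066560.2 was under the filter. Tested without it, the log2 difference was 2.20 in untreated plants (limma adjusted p = 1.93e-11) and 0.14 in treated plants (limma adjusted p = 0.0472). Its 354 fragments in untreated root stood against 2 in untreated leaf, a 187-fold difference per fragment sequenced (exact 95% interval 51.5 to 1553, counting error only). In treated plants 12 fragments in root stood against 2 in leaf, a 7.14-fold difference (exact 95% interval 1.59 to 65.7, counting error only).

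In treated plants 3 members were called higher in root and 3 lower, against 44.9% and 33.4% of the loci tested. Among these, Solyc10g083880.2 was below 1 FPKM in treated leaf and passed the filter through its other libraries, so that its place in this count is no support either. The difference grew to 6.17 (SE 0.17) for Solyc10g083880.2, 4.50 (SE 0.088) for Solyc06g060760.3 and 3.32 (SE 0.14) for Solyc12g044330.2, all with a limma adjusted p of at most 2.24e-10. In mean FPKM, Solyc10g083880.2 was 22.4 times as high in root as in leaf in untreated plants and 302 times in treated plants. The treated leaf value rests on 4 to 11 fragments per library.

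Solyc06g075650.3 changed sides, being lower in root than in leaf by -0.80 (SE 0.088, limma adjusted p = 2.70e-06) in treated plants. Solyc06g074820.3 and Solyc06g072130.3 stayed lower in root, at -1.42 (SE 0.094) and -2.50 (SE 0.14), with a limma adjusted p of at most 1.81e-08. For Solyc06g072130.3, which entered through its leaf values, the p is again no support. Solyc03g120470.3 missed the threshold at -0.22 (95% interval -0.45 to 0.01, limma adjusted p = 0.0728), as in 16 of 19 alternatives. It passed with median-of-ratios scaling (-0.37, limma adjusted p = 0.00597) and in limma-voom (-0.26, limma adjusted p = 0.0310). With 1 library left out at a time, its limma adjusted p ran from 0.0170 to 0.298. The untreated and the treated tissue comparisons use separate libraries but come from the same fit, with a shared spread. The growth and the change of side between them restate the interaction given above and are no further evidence. The median difference over all loci was -0.20 in untreated and 0.16 in treated plants as deposited, and -0.01 and 0.01 with median-of-ratios scaling. Relative to the former medians, Solyc06g075650.3 was at 0.50 in untreated and -0.96 in treated plants.

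**Figure D3:**
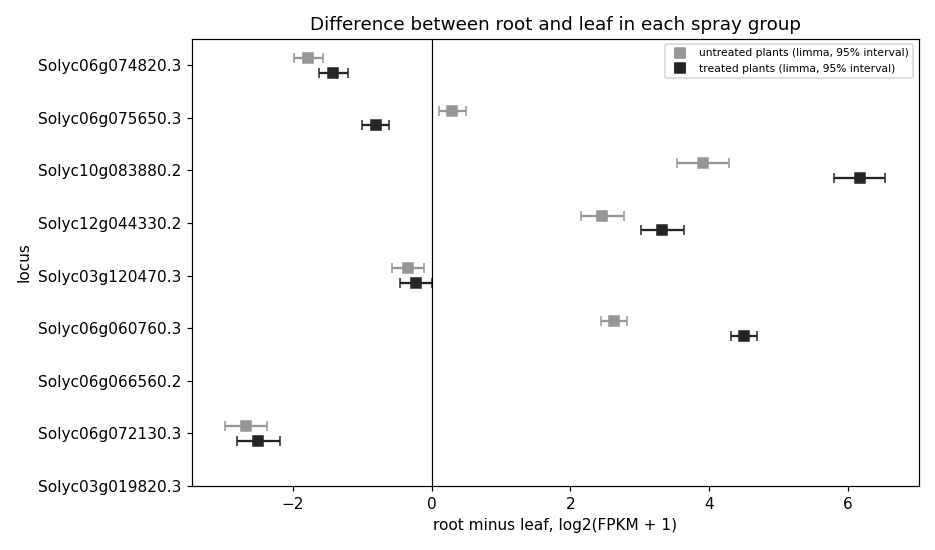
Root minus leaf difference in log2(FPKM + 1) (horizontal axis) for each locus (vertical axis), in untreated (grey) and treated (black) plants. Points are limma estimates with 95% intervals, and the loci without a point were below the filter. Solyc10g083880.2 lies at 3.91 and 6.17, and Solyc06g075650.3 lies on either side of 0, at 0.30 and -0.80.

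The summed level of the 9 loci followed from these changes and was dominated by few members. In leaf the sum was 150, 152 and 172 FPKM untreated and 273, 269 and 272 FPKM treated. In root it was 194, 193 and 179 FPKM untreated and 521, 491 and 586 FPKM treated. The groups did not overlap in either tissue. The treated mean was 1.72 times the untreated mean in leaf and 2.83 times in root, and with median-of-ratios scaling 1.87 and 2.35 times. No test was made on a sum over chosen loci.

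Solyc06g074820.3 made up 76.7% ± 2.98 of the summed FPKM in untreated leaf and 84.1% ± 0.530 in treated leaf (SD, n = 3). In root the sum was shared more evenly. Solyc06g060760.3 held 41.4% ± 0.906 in untreated and 50.9% ± 3.87 in treated root (SD, n = 3). Solyc10g083880.2 held 21.7% ± 1.12 and 17.6% ± 2.20, and Solyc06g074820.3 held 18.4% ± 0.869 and 16.0% ± 0.435 (SD, n = 3). Solyc12g044330.2 held 10.7% ± 1.71 and 13.1% ± 1.48 (SD, n = 3).

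**Figure D4:**
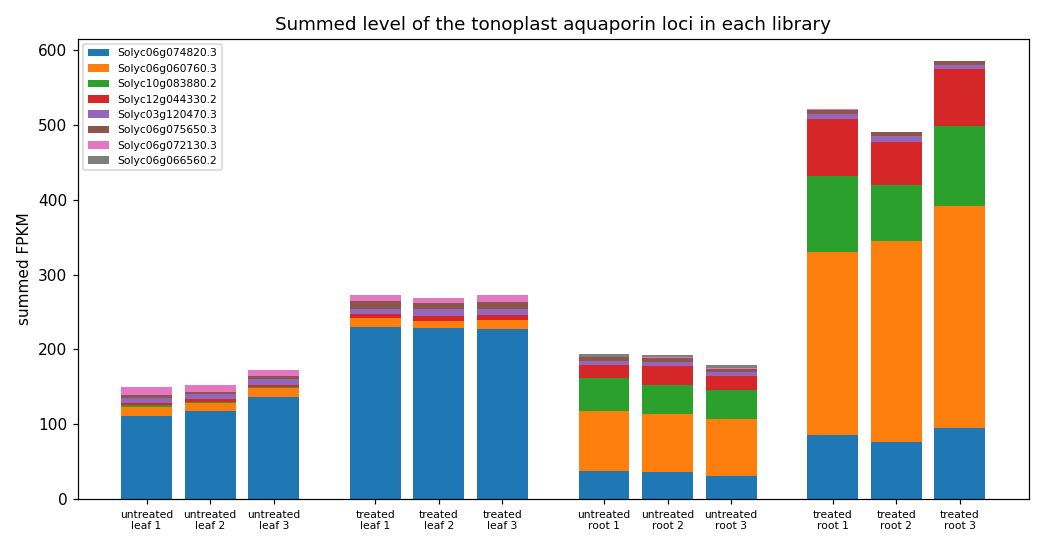
Summed FPKM of the loci (vertical axis, from 0) in each of the 12 libraries (horizontal axis), with 1 colour per locus. Leaf bars consist mostly of Solyc06g074820.3, and root bars mostly of Solyc06g060760.3, Solyc10g083880.2 and Solyc06g074820.3. The treated root bars reach 491 to 586 FPKM, above all others.

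Ratios between members inside a library do not depend on scalings that multiply the whole library by a common factor. Quantile normalization is not of that kind and can change them. The ratio of Solyc06g060760.3 to Solyc06g074820.3 was 0.0981 ± 0.0157 in untreated and 0.0482 ± 0.00562 in treated leaf (SD, n = 3). In root it was 2.25 ± 0.140 untreated and 3.18 ± 0.329 treated (SD, n = 3). The ratio therefore fell in leaf and rose in root, and in neither tissue did treated and untreated libraries overlap. The ratio of Solyc10g083880.2 to Solyc06g074820.3 in root overlapped between groups, at 1.18 ± 0.0738 untreated and 1.10 ± 0.109 treated (SD, n = 3). These pairs were picked after their values had been seen, and no test was made on them.

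Solyc06g074820.3 had the highest mean over the 12 libraries, and the loci with the most similar pattern to it were Solyc12g088670.2 and Solyc03g119930.1. Pearson's r of log2(FPKM + 1) was 0.995 for each, over 12 libraries that share their tissue and spray groups. Solyc12g088670.2 had means of 454, 793, 130.2 and 327 FPKM in untreated leaf, treated leaf and the same order of root groups. Those of Solyc03g119930.1 were 31.7, 65.9, 5.98 and 20.6 FPKM. Among the members that passed the filter, the root members Solyc10g083880.2, Solyc12g044330.2 and Solyc06g060760.3 were most alike, with r from 0.909 to 0.973 over the same 12 libraries. They were named root members from these libraries, so a high r is no further support. In leaf, their log2 changes after the spray were -1.09, 0.88 and -0.10. Solyc06g066560.2 was under the filter and was left out.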

How the data were processed

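Per the labels' protocols, libraries were made with a NEBNext Ultra kit from RNA of 30 mg of tissue. Of the authors' tools, fastp, featureCounts and DESeq2 are known from the submitters' processing notes. For the aligner, the build, the gene annotation and the use of strand, the entry is "not given in the sources used here", and reads shared with close copies or overlapping genes could be split. The deposited table holds FPKM made by the authors for 35976 loci in 12 libraries.

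Library totals, locus lengths and whole fragments were recovered from the FPKM digits (tolerance 0.001). They gave depth and the limma-voom alternative. Where all counts of a locus share a factor, its length and counts can come out too low. limma 3.58.1 in R 4.3.3 was run on log2(FPKM + 1) with a trended prior (2-sided tests), over all loci that averaged 1 FPKM or more in the libraries of the fit. Each tissue was fitted on 6 libraries, the interaction and tissue comparisons on 12. Fragments simulated with 200 changed loci, as many up as down, were used to test the fit. Far more loci were called in the data, with a shifted median in root, so no result rests on that simulation. Figures used matplotlib 3.10.9.

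All 9 members were named whatever their values. Members and lists were chosen with earlier results of these data known. Planned lists of leaf markers and of plasma membrane aquaporins were not evaluated, because 0 identifiers matched the RefSeq table, so the labelled tissues were not checked against markers. Locus sequences were not used here. The alternatives were another pseudocount, no filter, 3 other scalings, limma-voom, a replicate block, all libraries in 1 fit, and each replicate left out.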

Additional observations from a re-analysis of the deposited data

Results flagged for a closer look

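The interaction test called a difference between root and leaf in the effect of the spray for 5 of the 7 members tested. That is near the share over all loci, of which 46.6% passed with a higher and 20.8% with a lower effect in root, so the count is not a result about the members. The root minus leaf difference was 2.26 on the log2 scale for Solyc10g083880.2, which fell in leaf and rose in root. This locus was below 1 FPKM in treated leaf, with 4 to 11 fragments per library, and its leaf test passed the filter only through untreated libraries. Over the alternatives its difference ran from 1.94 to 3.73. The root minus leaf difference was 1.87 for Solyc06g060760.3, 0.86 for Solyc12g044330.2 and 0.36 for Solyc06g074820.3, each higher in root. The call on Solyc12g044330.2 was lost in limma-voom (0.70, limma adjusted p = 0.0582). That on Solyc06g074820.3 was lost with quantile normalization, when any 1 of 5 libraries was left out, and with median-of-ratios scaling, where the difference was -0.025 (limma adjusted p = 0.892). For Solyc06g075650.3, which rose in leaf, the root minus leaf difference was -1.10. Over all loci tested the median difference was 0.32.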

How the results depend on the processing

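For single loci, 565 of 592 alternative values kept their direction and their side of the threshold. The spray calls on Solyc06g074820.3, Solyc10g083880.2 and Solyc12g044330.2 in leaf and root, Solyc06g075650.3 in leaf, and Solyc06g060760.3 and Solyc06g066560.2 in root held under every alternative that tested them. Solyc10g083880.2 in leaf was tested in 12 alternatives and Solyc06g066560.2 in root in 13, against 14 for the others. These 2 passed the filter only through their untreated libraries, so that holding is no further support for their calls. Signs turned in 6 cases. In the interaction with median-of-ratios scaling, Solyc06g074820.3 went to -0.025, Solyc03g120470.3 to -0.21 and Solyc06g072130.3 to -0.037, and with quantile normalization Solyc03g120470.3 went to -0.15. The cause was not tested. In root, Solyc06g075650.3, at -0.02 with all libraries, ran from -0.079 to 0.047 with 1 library left out, and was above 0 without untreated root replicate 2 or treated root replicate 3. With median-of-ratios scaling the summed level was 1.87 times the untreated mean in leaf and 2.35 times in root, against 1.72 and 2.83 as deposited. With each replicate left out, 3 to 4 members were called in leaf, 5 to 6 in root, 4 to 6 in the interaction, 7 to 8 between untreated tissues and 6 to 7 between treated tissues. Leaving out a library in which Solyc06g066560.2 is near 0 lifts that locus past the filter over the remaining libraries. Same-numbered libraries did not deviate together: correlations ran from -0.238 to 0.094 in leaf and from -0.006 to 0.04 in root, and 0 of 3 and 1 of 3 treated libraries correlated best with their own number. With the replicate block, 4 members were called in leaf, 6 in root, 5 in the interaction, 7 between untreated and 6 between treated tissues, as without it. Depth limits Solyc06g066560.2 in leaf and treated root, Solyc06g072130.3 in root and Solyc10g083880.2 in treated leaf, which had 16 fragments or fewer per library.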
